A study of Rattus norvegicus with 12 samples.

Results

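The interleukin-1 (IL-1) family genes followed here were 8 genes chosen by their names: the ligands Il1a, Il1b, Il33 and Il18, the receptor antagonist Il1rn, and the receptor chains Il1r1, Il1rap and Il1rl1. All 8 had a gene record among the 22442 records of the table, and where a name was shared by several records the one with the highest mean level was taken. Levels were given as FPKM, fragment counts scaled by transcript length and by the mapped reads of the library, so that they can be set side by side between genes. The cells were fibroblast-like synoviocytes (FLS), the connective tissue cells of the joint lining, grown out of the synovium of male Sprague Dawley rats with adjuvant arthritis (AA) after an injection of complete Freund's adjuvant into a hind paw, and used at passage 3. The age of the rats is not given in the sources used here. The 12 poly(A) RNA libraries formed 4 groups of 3. FLS of the FCA group were kept in DMEM alone, and FLS of the AT01, AT1 and AT10 groups received taurochenodeoxycholic acid (TCDCA), a taurine-conjugated bile acid, at 0.1, 1 and 10 µM for 12 h. Every group therefore came from arthritic rats, and no FLS of healthy rats were among the libraries. Nothing in the labels says whether the 3 libraries of a group came from separate cultures or animals, so the p-values measure the spread between these libraries, which may be technical.

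IL-1α and IL-1β bind the receptor chain IL-1R1, which recruits the accessory protein IL-1RAP and signals through MyD88 and the IRAK kinases to NF-κB and the MAP kinases. The antagonist IL-1RA, the product of Il1rn, occupies IL-1R1 without recruiting the accessory protein. IL-33, a nuclear protein released from damaged cells, signals through ST2, the product of Il1rl1, with the same accessory protein, while soluble ST2 captures IL-33. IL-18 uses a receptor pair of its own. In the inflamed joint, synovial fibroblasts are a main target of IL-1 and answer it with chemokines, IL-6, prostaglandin-forming enzymes and matrix metalloproteinases.

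The promoters of Il1a, Il1b, Il1rn and Il1rl1 are shown because the first 3 encode the competing ligands of IL-1R1 and the last is the family gene of the highest level. Each sequence is the 250 bases before the annotated start site, 5′ to 3′ on the strand of the gene, from RefSeq on the GRCr8 build. Capitals mark matches to TATAAA or, in Il1a, to the AP-1 motif TGANTCA, searched on both strands, so that a match on the opposite strand reads TTTATA. The windows lay at chr3:136990018-136990267 on the minus strand for Il1a, chr3:137036582-137036831 on the minus strand for Il1b, chr3:27520072-27520321 on the plus strand for Il1rn and chr9:50203388-50203637 on the plus strand for Il1rl1.
Il1a: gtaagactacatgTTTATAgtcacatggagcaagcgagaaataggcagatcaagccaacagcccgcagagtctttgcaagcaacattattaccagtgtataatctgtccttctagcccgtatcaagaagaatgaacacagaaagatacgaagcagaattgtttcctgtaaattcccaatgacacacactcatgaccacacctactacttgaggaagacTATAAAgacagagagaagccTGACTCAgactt
Il1b: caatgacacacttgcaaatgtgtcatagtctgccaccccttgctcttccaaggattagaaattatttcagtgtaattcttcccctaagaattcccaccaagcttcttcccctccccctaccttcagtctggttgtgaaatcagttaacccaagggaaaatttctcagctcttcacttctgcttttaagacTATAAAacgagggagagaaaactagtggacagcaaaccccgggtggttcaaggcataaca
Il1rn: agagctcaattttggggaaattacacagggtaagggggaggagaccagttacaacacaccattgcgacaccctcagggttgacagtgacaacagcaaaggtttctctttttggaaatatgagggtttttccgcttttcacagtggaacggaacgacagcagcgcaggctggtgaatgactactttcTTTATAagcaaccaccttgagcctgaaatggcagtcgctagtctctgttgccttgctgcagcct
Il1rl1: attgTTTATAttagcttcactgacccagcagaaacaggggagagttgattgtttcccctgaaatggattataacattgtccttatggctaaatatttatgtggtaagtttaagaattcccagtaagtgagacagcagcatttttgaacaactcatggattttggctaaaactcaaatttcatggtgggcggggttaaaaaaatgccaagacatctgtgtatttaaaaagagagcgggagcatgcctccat

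Positions are counted back from the start site, with -1 the base before it. Il1a held TATAAA on its own strand from -32 to -27, a second match on the opposite strand from -237 to -232, and the AP-1 motif from -12 to -6. In Il1b the match ran from -60 to -55. Those of Il1rn, from -64 to -59, and of Il1rl1, from -246 to -241, lay on the opposite strand. Of all 33469 windows of the same length, 12.9% held TATAAA and 6.34% the AP-1 motif. A motif for NF-κB, the kappaB consensus, was found in the windows of Il1r1, from -135 to -126, and of Il1rap, from -85 to -76, and in 3.54% of all windows. None of the 10 windows of the 8 members held the cAMP response element TGACGTCA, which 1.59% of all windows held, or the glucocorticoid response element, which 0.012% held. A match is a run of letters, not a site shown to be bound. Il1rn thus lay far from the Il1a and Il1b windows on chromosome 3. On chromosome 9, Il1r1, Il1rl2, Il1rl1, Il18r1 and Il18rap followed each other among the protein-coding genes of the annotation, with Il1r2 separated from Il1r1 by H3f3al3.

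The libraries carried the markers of the labelled cell type. All 12 of the 14 FLS markers that had a record passed the filter on low values, with a summed level of 6710 to 7355 FPKM in FCA, 6045 to 6481 FPKM in AT01, 6688 to 6745 FPKM in AT1 and 5195 to 6863 FPKM in AT10. In AT10 against FCA 9 of the 12 were lower, with a median log2 fold change of -0.22 beside -0.01 over all records and 0 adjusted calls, and their part in the results below was not tested. A record was found for 3 of 9 markers of mast cells, 6 of 10 of T and B lymphocytes, 8 of 10 of endothelium and 3 of 8 of epithelium. The markers with a record summed to at most 0.6 FPKM per list in every library. Of the 14 macrophage markers, 8 had a record and 2 passed the filter, Cd14 and Cd68, and the list summed to between 5.91 and 22.1 FPKM. It reached 6.9 to 22.1 FPKM in FCA, 7.24 to 20.6 FPKM in AT01, 5.91 to 17.9 FPKM in AT1 and 18.9 to 21.8 FPKM in AT10. Cd14, which fibroblasts also carry, was low in FCA replicate 3 (4.60 FPKM), AT1 replicate 1 (3.60 FPKM) and AT01 replicate 1 (3.72 FPKM) and lay between 15.7 and 18.8 FPKM in the other 9 libraries. Cd68 stood at 1.70, 1.98 and 2.23 FPKM in those 3 libraries and between 1.66 and 2.91 FPKM over all 12. Among the 11611 records past the filter, 525 had 2 such separate levels, at least 1 apart on the log2 scale. The cause of these splits was not tested. The part of Cd14 and of the macrophage list in the results was not tested. In bulk libraries, fewer cells of a type and less RNA per cell cannot be told apart. The read counts behind the FPKM were not used here, so the depth of a single value is unknown and no counting interval is given.

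Il1rl1, the gene of ST2, led the family with a mean of 92.9 FPKM over the 12 libraries. Its record pools 2 Ensembl transcripts, so its FPKM cannot tell the receptor from soluble ST2. Il33, which encodes the ligand of ST2, followed with 24.0 FPKM, and Il1r1 with 21.6 FPKM. Il1rn stood at 6.62 FPKM, Il1rap at 2.67 FPKM, Il1a at 2.29 FPKM and Il1b at 1.62 FPKM, while Il18 averaged 0.0208 FPKM and was listed at 0 in 8 of the 12 libraries. The range of Il1rl1 lay above that of Il33, the range of Il1r1 above that of Il1rn, that of Il1rn above that of Il1rap, and that of Il1b above that of Il18. Other neighbours in this order overlapped. Il33 was above Il1r1 in 9 of 12 libraries, Il1rap above Il1a in 10 of 12 and Il1a above Il1b in 8 of 12. Il1rap is placed here by its record of the higher mean. Its other record averaged 2.14 FPKM, below Il1a, and sums over records were not ranked. Of 13 further family genes, 8 had a record and 2 a mean of at least 1 FPKM. These were Il1rl2, the receptor of the IL-36 ligands, at 7.80 FPKM and Il18rap, a chain of the IL-18 receptor, at 1.39 FPKM. The decoy receptor gene Il1r2 averaged 0.29 FPKM, Il18r1 0.18 FPKM and Sigirr, a negative regulator of the pathway, 0.08 FPKM.

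**Figure D1:**
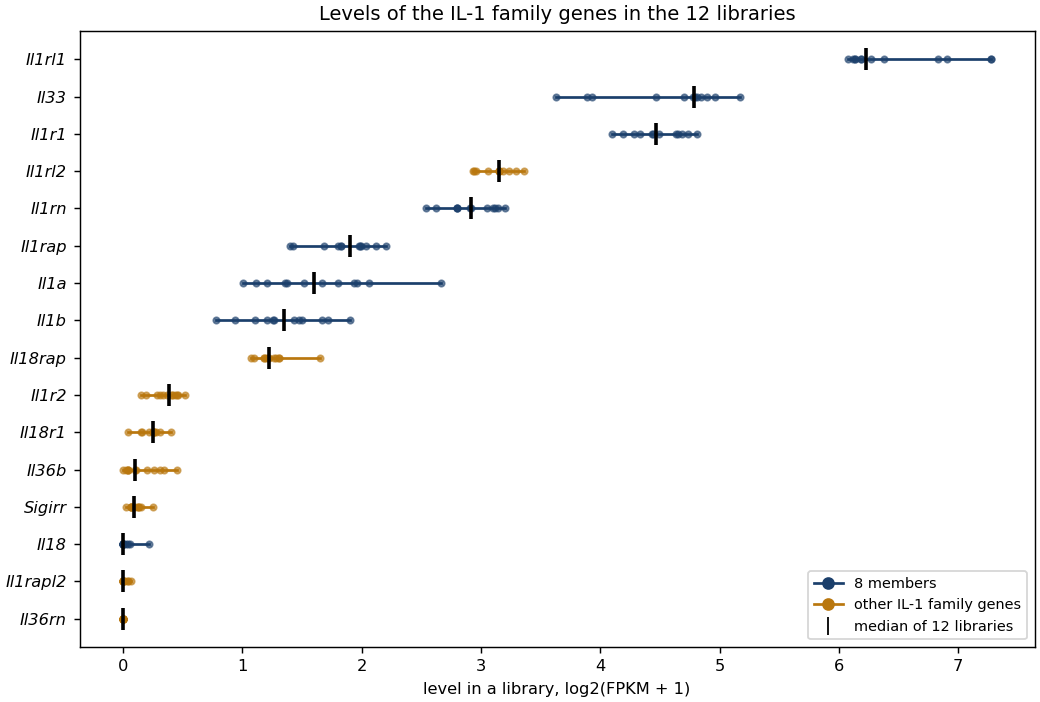
Level of each IL-1 family gene with a record, on a log scale, log2(FPKM + 1), with 1 point per library, a line over the range of the 12 libraries and a black mark at the median. Blue genes are the 8 members and orange genes the other family genes. Il1rl1 lies to the right of every other gene in all 12 libraries, and Il18 lies at or near 0.

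Whether TCDCA changed these genes was asked in 6 comparisons of 2 groups, in 1 comparison of the 9 TCDCA libraries with the 3 FCA libraries, and in 1 test over all 4 groups. Differences were taken on log2(FPKM + 1), which understates the change of low genes, and tested with limma over the 11611 records whose mean reached 1 FPKM, with Benjamini-Hochberg adjustment over all of them. Il18 fell below that level, so 7 of the 8 members were tested. Beside a member stands a two-sided exact permutation test over the libraries, which can go no lower than 0.1 with 3 libraries on each side and 0.00455 with 9 on one, so that a comparison of 2 groups cannot reach 0.05 by this test. A second rule was an unadjusted limma p under 0.05 beside a log2 fold change outside the range from -1 to 1. These are the thresholds of the study, which set them on Ballgown results and not on limma.

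None of the 7 tested members had a limma adjusted p under 0.05 in any comparison, and 0 passed the second rule where 2 groups were compared. A Ballgown-style F test gave 0 by both rules as well. The 0 by the second rule rests on the pseudocount of 1 FPKM. With 0.1 FPKM in its place, Il1a passed it in AT10 against AT1, with a log2 fold change of 1.03 and a limma adjusted p of 0.747, and in AT10 against AT01, with 1.15 and 0.861. Over all records, an adjusted p under 0.05 was reached against FCA by 0.172% at 10 µM, 0.0947% at 1 µM and 0.0947% at 0.1 µM. Between doses it was 0.258% for 10 against 1 µM, 0.0689% for 10 against 0.1 µM and 0.129% for 1 against 0.1 µM. It was 0.0258% for the TCDCA libraries together and 0.0431% over the 4 groups. The second rule was met by 0.706%, 0.62% and 0.758% of all records at 10, 1 and 0.1 µM against FCA. Between doses, in the same order as before, the shares were 0.594%, 0.672% and 0.568%. Both rules call few records of the table, so a count of 0 among 7 genes is near that background.

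Single members had an unadjusted limma p under 0.05. The gene was Il1rn in AT10 against FCA, where 11.9% of all records had such a p, and again Il1rn in AT01 against FCA, where 6.6% had one. In AT1 against FCA the count was 0, beside 11% of all records. Il1a was the only such member in AT10 against AT1, beside 6.46% of all records. Il1a and Il1rl1 were the members in AT10 against AT01, beside 4.97%. The count was 0 in AT1 against AT01, beside 3.43%, and 0 for the TCDCA libraries together, beside 12%. Over the 4 groups it was 2, Il1a and Il1rn, beside 8.57%. Groups without overlap were found for Il1rn in AT10 against FCA, where 19.9% of all records did not overlap, and for Il1rn and Il1r1 in AT01 against FCA, where 14% did not. The count was 0 in AT1 against FCA, beside 19.9%. It was 1 in AT10 against AT1, beside 13.9%, 2 in AT10 against AT01, beside 11.1%, and 0 in AT1 against AT01, beside 8.6%. The comparisons against FCA share the same 3 control libraries.

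**Figure D2:**
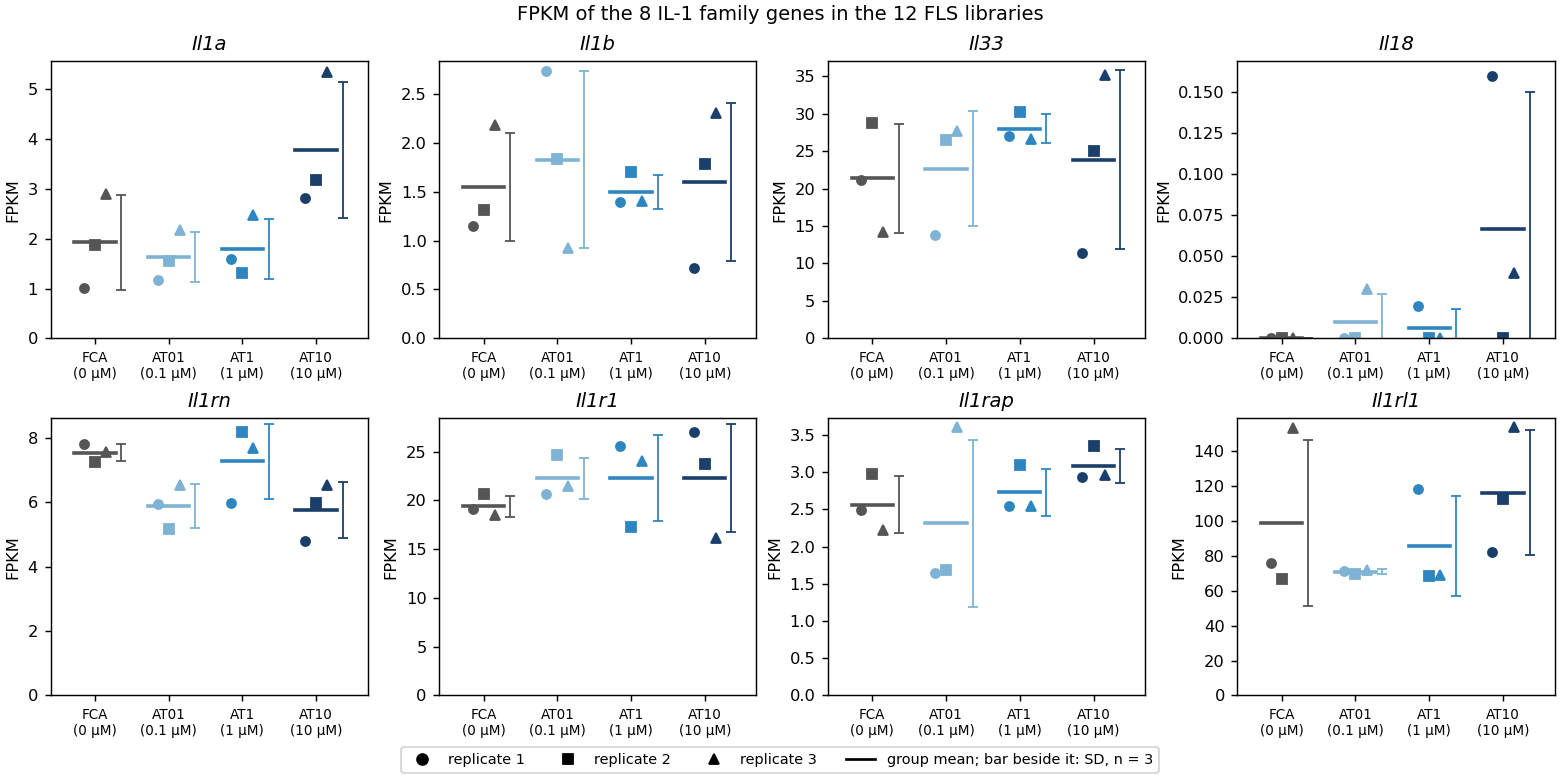
FPKM of each of the 8 members in the 12 libraries, by group from 0 to 10 µM TCDCA. Symbols mark the replicate number, the horizontal line is the group mean, and the bar beside it is the SD (n = 3). The AT10 libraries of Il1a lie above every AT01 and AT1 library, and those of Il1rn lie below every FCA library.

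Il1a was at its highest with 10 µM TCDCA. Il1a encodes IL-1α, which is active as a precursor and acts close to the cell that makes it. Its level was 1.01, 1.87 and 2.90 FPKM in the FCA libraries, 1.17, 1.56 and 2.18 FPKM in AT01, 1.60, 1.31 and 2.48 FPKM in AT1, and 2.82, 3.18 and 5.35 FPKM in AT10. The AT10 libraries lay above all AT01 and AT1 libraries, and 2 of the 3 lay above all FCA libraries. The mean was 3.78 ± 1.37 FPKM (SD, n = 3) in AT10 and 1.93 ± 0.946 FPKM in FCA. Against FCA, Il1a in AT10 had a log2 fold change of 0.72 ± 0.31 (SE), with a 95% interval from -0.04 to 1.48, a limma adjusted p of 0.427 and an exact permutation p of 0.2. Without FCA replicate 1 it was 0.48, without AT10 replicate 3 it was 0.50, and without FCA replicate 3 it was 0.96. Against AT1 the difference of AT10 was 0.76 (95% interval 0.14 to 1.38, limma adjusted p = 0.748) and against AT01 it was 0.84 (0.24 to 1.44, limma adjusted p = 0.867), each with an exact permutation p of 0.1, the smallest this design allows. At the lower doses the difference from FCA was -0.04 (95% interval -0.74 to 0.67) in AT1 and -0.12 (-0.80 to 0.57) in AT01. Differences between the 4 groups held 55.4% of the variance of Il1a on the log2 scale, more than in 86.4% of all records tested, with an exact permutation p of 0.0799.

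Il1b did not separate the groups. This gene encodes IL-1β, whose precursor is cleaved by caspase-1 before release. Its level was 1.15, 1.31 and 2.18 FPKM in FCA, 2.73, 1.83 and 0.92 FPKM in AT01, 1.39, 1.70 and 1.40 FPKM in AT1, and 0.72, 1.78 and 2.30 FPKM in AT10. The lowest and the highest library of the 12 were both TCDCA libraries, and the FCA libraries lay within the range of AT10 and of AT01. The log2 fold changes against FCA were -0.0004 in AT10 (95% interval -0.71 to 0.71), -0.01 in AT1 (-0.43 to 0.41) and 0.12 in AT01 (-0.58 to 0.82). Groups held 2.93% of its variance, beside a median of 30.2% over all records tested.

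Il1rn was lower in AT10 and AT01 than in FCA, without passing the adjusted threshold. Its product is the receptor antagonist of both IL-1 ligands. The FCA libraries were close together at 7.81, 7.27 and 7.56 FPKM. AT10 held 4.80, 5.97 and 6.53 FPKM and AT01 5.95, 5.17 and 6.55 FPKM, while AT1 spread over 5.97, 8.19 and 7.68 FPKM. All 6 libraries of AT10 and AT01 lay below the lowest FCA library, and the AT1 libraries lay on both sides of the FCA range. The log2 fold change was -0.34 ± 0.11 (SE) in AT10, with a 95% interval from -0.62 to -0.07 and a limma adjusted p of 0.347. In AT01 it was -0.32 ± 0.098 (SE), with an interval from -0.56 to -0.07 and a limma adjusted p of 0.696. Both had an exact permutation p of 0.1. In AT1 it was -0.06 (95% interval -0.35 to 0.24), so the order of the differences did not follow the dose. Over the 9 TCDCA libraries it was -0.24 (95% interval -0.51 to 0.03, limma adjusted p = 0.46), 7 of the 9 lay below all FCA libraries and 1 above them, and the exact permutation p was 0.0818. Groups held 57.1% of its variance, more than in 88% of all records tested (exact permutation p = 0.0849).

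The balance of antagonist to ligand RNA was described by the FPKM of Il1rn over the sum of Il1a and Il1b, with no test, since it was built from members already examined. The ratio was 3.62, 2.29 and 1.49 in FCA, 1.53, 1.53 and 2.11 in AT01, 2.00, 2.72 and 1.98 in AT1, and 1.36, 1.204 and 0.854 in AT10. The 3 AT10 libraries were the lowest of the 12, and 1 of them, replicate 3, held less Il1rn than ligand RNA. FCA spread the most, with a mean of 2.46 ± 1.08 (SD, n = 3) against 1.14 ± 0.258 in AT10, and its replicate 3 lay below every AT01 and AT1 library. The ratio of Il1a to Il1b averaged 2.68 ± 1.11 in AT10 and between 1.21 and 1.23 in the other groups.

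Il33 varied more within groups than between them, with 12.5% of its variance between groups. The median over all records tested was 30.2%, so most records varied more within groups as well. IL-33 is a nuclear protein of stromal and barrier cells that acts as an alarm signal once released. Its level was 21.14, 28.73 and 14.23 FPKM in FCA, 13.82, 26.41 and 27.71 FPKM in AT01, 27.04, 30.23 and 26.67 FPKM in AT1, and 11.37, 25.03 and 35.14 FPKM in AT10. The lowest and the highest library were both AT10 libraries. The difference from FCA was 0.07 in AT10 (95% interval -1.05 to 1.19), 0.42 in AT1 (-0.18 to 1.03, limma adjusted p = 0.523) and 0.07 in AT01 (-0.80 to 0.94). The intervals at 10 and 1 µM reach beyond 1 on the log2 scale, so a doubling could not be told from no change at these doses.

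Il18 could not be compared. IL-18 is made mainly by macrophages and epithelial cells. It was listed at 0 in all 3 FCA libraries, at 0.03 FPKM in 1 AT01 library, at 0.02 FPKM in 1 AT1 library, and at 0.16, 0 and 0.04 FPKM in AT10. No fold is given against a group listed at 0.

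**Figure D3:**
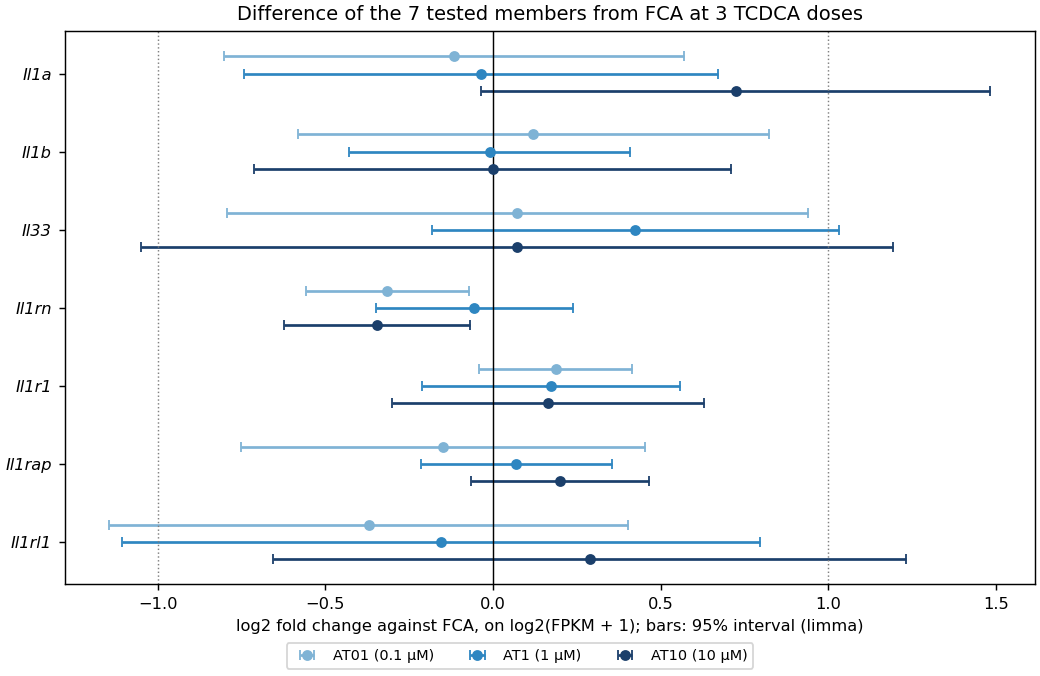
Log2 fold change of the 7 tested members against FCA at 0.1, 1 and 10 µM TCDCA, on log2(FPKM + 1), with the 95% interval of limma. Dotted lines stand at -1 and 1, the fold thresholds of the study. Every interval includes 0 except those of Il1rn in AT10 and AT01, whose adjusted p was 0.347 and 0.696.

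Il1r1, the receptor chain that binds both IL-1 ligands, was near 20 FPKM in every group. It stood at 19.14, 20.62 and 18.48 FPKM in FCA, 20.70, 24.66 and 21.46 FPKM in AT01, 25.59, 17.25 and 24.10 FPKM in AT1, and 27.00, 23.79 and 16.18 FPKM in AT10. The AT01 libraries lay just above the FCA libraries, by 20.70 against 20.62 FPKM at the nearest pair, while AT1 and AT10 each had 2 libraries above and 1 below the FCA range. The log2 fold change was 0.16 in AT10 (95% interval -0.30 to 0.63), 0.17 in AT1 (-0.21 to 0.56) and 0.19 in AT01 (-0.04 to 0.41, limma adjusted p = 0.742). Single libraries moved these values. The difference in AT10 was 0.02 without AT10 replicate 1 and 0.37 without AT10 replicate 3, that in AT1 was 0.07 without AT1 replicate 1 and 0.34 without AT1 replicate 2, and that in AT01 was 0.11 without AT01 replicate 2. Over the 9 TCDCA libraries it was 0.17 (95% interval -0.13 to 0.48), and 7 of the 9 lay above all FCA libraries (exact permutation p = 0.259).

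Il1rap, the accessory chain shared by the IL-1 and IL-33 receptors, had 2 records of similar level. The record with the higher mean holds 1 assembled transcript and no Ensembl transcript, and the other holds the 2 Ensembl transcripts, so reads of the gene may be divided between them. The first stood at 2.49, 2.98 and 2.22 FPKM in FCA, 1.64, 1.69 and 3.61 FPKM in AT01, 2.55, 3.10 and 2.55 FPKM in AT1, and 2.94, 3.35 and 2.96 FPKM in AT10. Its difference from FCA was 0.20 in AT10 (95% interval -0.06 to 0.47, limma adjusted p = 0.503), 0.07 in AT1 (-0.21 to 0.35) and -0.15 in AT01 (-0.75 to 0.45). The record with the Ensembl transcripts gave -0.07 in AT10 (95% interval -0.30 to 0.17), 0.05 in AT1 (-0.20 to 0.30) and -0.07 in AT01 (-0.28 to 0.14). The sign in AT10 thus depends on the record, and in neither record did any group separate from FCA.

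Il1rl1, the gene of ST2, varied widely among the untreated libraries. Its level was 76.20, 66.58 and 153.57 FPKM in FCA, 71.66, 69.42 and 71.87 FPKM in AT01, 118.62, 68.55 and 69.33 FPKM in AT1, and 82.40, 112.63 and 154.06 FPKM in AT10. The 3 AT01 libraries differed by less than 3 FPKM, while FCA replicate 3 and AT10 replicate 3 were the highest of the 12. All AT10 libraries lay above all AT01 libraries, with a log2 fold change of 0.66 (95% interval 0.11 to 1.21), a limma adjusted p of 0.867 and an exact permutation p of 0.1. Against FCA the difference was 0.29 in AT10 (95% interval -0.66 to 1.23, limma adjusted p = 0.76), -0.15 in AT1 (-1.11 to 0.80) and -0.37 in AT01 (-1.15 to 0.40). FCA replicate 3 set much of these values. Without it AT10 differed from the other FCA libraries by 0.65, AT1 by 0.21 and AT01 by -0.01.

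A second Il1rl1 record, with 1 assembled transcript and no Ensembl transcript, is described here after its values were seen. It stood at 4.24, 4.62 and 3.96 FPKM in FCA, 4.35, 4.72 and 4.33 FPKM in AT01, 4.37, 4.90 and 4.14 FPKM in AT1, and 5.68, 6.40 and 7.37 FPKM in AT10. The AT10 libraries lay above all other 9 libraries, and the other 3 groups overlapped. Of all records tested, AT10 did not overlap FCA in 19.9%, AT1 in 13.9% and AT01 in 11.1%. The share in which AT10 stood apart from all 9 was not counted. Its log2 fold change in AT10 against FCA was 0.50 ± 0.11 (SE), with a 95% interval from 0.23 to 0.77 and a limma adjusted p of 0.187. The exact permutation test over the 4 groups gave a p of 0.0123, and the limma adjusted p over the 4 groups was 0.349. The level was far below that of the annotated record, and how the assembly divided reads between the records was not tested.

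**Figure D4:**
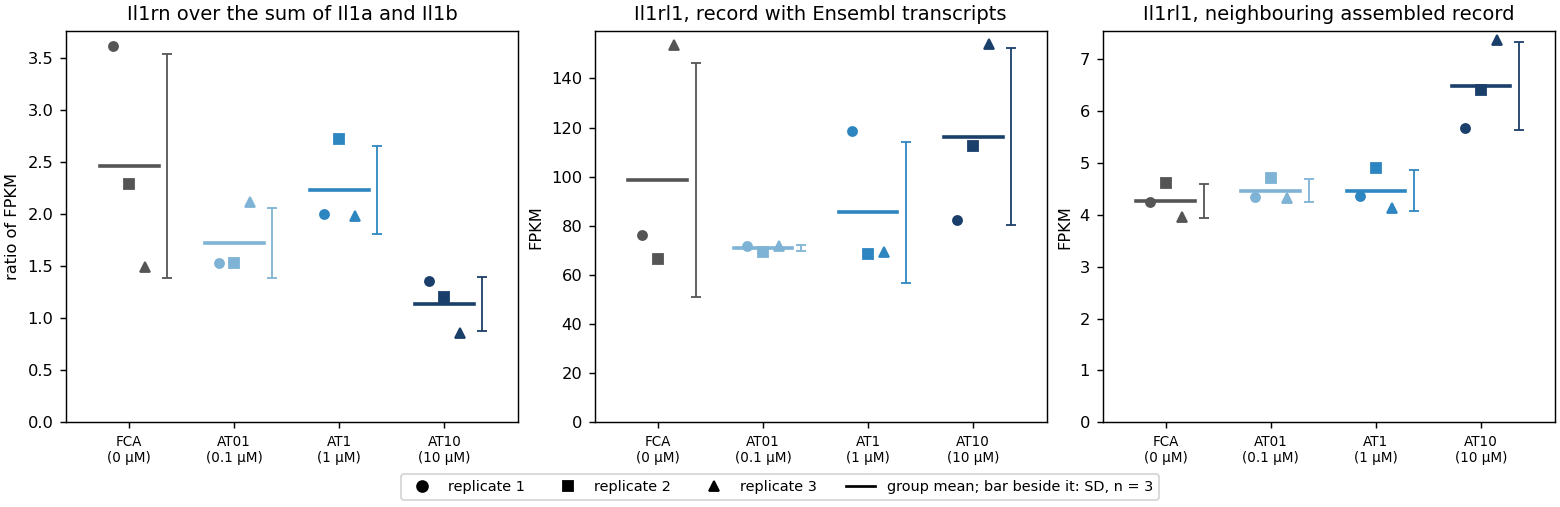
Left, the FPKM of Il1rn over the sum of Il1a and Il1b, and right, the FPKM of the 2 Il1rl1 records, in each library by group, with symbols for the replicate number, lines for group means and bars for the SD (n = 3). The AT10 libraries have the 3 lowest ratios, 0.854 to 1.36, and the 3 highest values of the neighbouring Il1rl1 record, 5.68 to 7.37 FPKM, while the annotated record reached 153.57 FPKM in FCA as well.

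The other genes of the pathway were counted from lists of named genes. Against FCA, 5 of the 7 tested members were higher in AT10 and 2 lower, with a median log2 fold change of 0.16 beside -0.01 over all records tested. In AT1 it was 3 higher and 4 lower, with a median of -0.01 beside 0.02, and in AT01 3 higher and 4 lower, with a median of -0.12 beside 0.0017. The 2 further family genes that were tested had 0 calls at a limma adjusted p under 0.05. Il1rl2 differed from FCA by 0.20 in AT10 (95% interval -0.04 to 0.45), 0.17 in AT1 (-0.02 to 0.37) and 0.08 in AT01 (-0.22 to 0.38), and Il18rap by 0.14, -0.10 and -0.07. The decoy receptor gene Il1r2 was too low to test.

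For processing and release of the ligands, 13 of 15 genes had a record and 9 were tested. Adjusted calls were 0 in every comparison, and in AT10 against FCA 4 were higher and 5 lower. Capn2, a calpain of the kind that cleaves the IL-1α precursor, led the list with 43.2 FPKM and a log2 fold change of -0.09 in AT10. Ninj1, which encodes a protein of membrane rupture in dying cells, followed with 37.8 FPKM and -0.13, and Gsdmd, the pore former gasdermin D, with 16.6 FPKM and -0.06. Ninj1 lay between 26.1 and 36.2 FPKM in 10 libraries but at 67.0 FPKM in AT1 replicate 1 and 73.8 FPKM in AT01 replicate 2. Casp1, which encodes the enzyme that matures IL-1β, averaged 1.68 FPKM. At an unadjusted limma p under 0.05, 1 of the 9 genes was lower in AT10, beside 11.9% of all records, 1 was lower in AT1, beside 11%, and there were 0 in AT01, beside 6.6%. The lower genes were Capn1 (-0.16, limma adjusted p = 0.408) and Pycard (-0.47, limma adjusted p = 0.42), named after their values were seen.

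For signalling below the receptor, 24 of 25 genes had a record and 22 were tested, again with 0 adjusted calls in every comparison. In AT10 against FCA 14 were higher and 8 lower, with a median of 0.11. The kinase gene Irak1 had the highest mean, 22.8 FPKM, and differed by -0.07 in AT10 and -0.03 in both other groups. Tab2, an adaptor of the kinase TAK1, averaged 21.5 FPKM and differed by 0.16 in AT10. Nfkbia, the NF-κB inhibitor that NF-κB itself induces, averaged 21.1 FPKM and differed by 0.36 in AT10 (95% interval -0.17 to 0.90) and 0.52 in AT01 (-0.05 to 1.09). At an unadjusted limma p under 0.05 there were 4 of the 22 genes in AT10, 3 higher and 1 lower, beside 11.9% of all records. AT1 had 2, both higher, beside 11%, and AT01 had 0, beside 6.6%. These genes are named after their values were seen. The lower gene in AT10 was Ikbkb, a kinase of the IκB kinase complex, at -0.34 (limma adjusted p = 0.231). The higher genes in AT10 were Chuk (0.34), Traf6 (0.22) and Mapk9 (0.16), each with a limma adjusted p of 0.41. In AT1 the higher genes were Ikbkg (0.45) and Mapk8 (0.30), each with a limma adjusted p of 0.435.

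Of 36 genes that IL-1 induces in fibroblasts, 34 had a record and 32 were tested, with 0 adjusted calls. In AT10 against FCA 23 were higher and 9 lower, with a median log2 fold change of 0.16 beside -0.01 over all records. In AT1 19 were higher and 13 lower, with a median of 0.04, and in AT01 17 higher and 15 lower, with a median of 0.02. The chemokine genes Ccl2, Ccl7 and Cxcl1 had the highest means, 1625, 699.3 and 560.5 FPKM. Ccl2 differed from FCA by 0.45 in AT10 (95% interval -0.18 to 1.09), Ccl7 by 0.33 (-1.85 to 2.50) and Cxcl1 by -0.22 (-1.32 to 0.89). Ccl7 lay at 2 separate levels that did not follow the groups. It was at 199.42 FPKM in FCA replicate 1, 232.53 in AT10 replicate 2, and 262.58 and 171.99 in AT01 replicates 1 and 3. In the other libraries it was at 724.34 FPKM or more, and the cause of the split was not tested. AT10 replicate 3, the library of the highest Il1a, also held the highest Ccl2 (2737 FPKM) and Ccl7 (1493 FPKM). It was the highest library as well for Il6, Lif, Cxcl3, Cxcl6, Ptgs2, Ptges, Mmp3, Nfkbiz, Nfkb2, Tnfaip3 and Zc3h12a. For every other tested gene of the list the highest library was another. Those were Cxcl1, Cxcl2, Vcam1, Sod2, Ccl20, Csf3, Mmp9, Mmp13, Nfkbia, Tnfaip2, Tnfaip6, Icam1, Lcn2, C3, Adamts4, Has1, Irak2, Irak3 and Slc39a14. The share of all records with their highest value in AT10 replicate 3 was not counted. How far the AT10 values of this list rest on that library was not tested. At an unadjusted limma p under 0.05 there were 3 of the 32 genes in AT10, all higher, beside 11.9% of all records. AT1 had 4, 2 higher and 2 lower, beside 11%, and AT01 had 3, all higher, beside 6.6%. These genes are named after their values were seen. In AT10, Ptgs2, the inducible cyclooxygenase, differed by 1.16 (limma adjusted p = 0.402), the chemokine gene Cxcl2 by 1.01 (0.272) and the adhesion molecule gene Vcam1 by 0.43 (0.297). Ptgs2 and Cxcl2 passed the second rule in AT10, beside 0.706% of all records. Ptgs2 stood at 40.49, 66.17 and 97.96 FPKM in AT10 and at 40.76, 16.63 and 32.90 FPKM in FCA (exact permutation p = 0.2). For Cxcl2 the exact permutation p was 0.1, the smallest such a comparison allows. In AT1, Vcam1 (0.56) and Sod2 (0.39), a mitochondrial superoxide dismutase gene, were higher, and Cxcl1 (-0.79, 95% interval -1.55 to -0.03, limma adjusted p = 0.445) and Zc3h12a (-0.24), the gene of an RNase that degrades cytokine mRNAs, were lower. In AT01, Vcam1 (0.49), Sod2 (0.41) and Il6 (0.51), the gene of interleukin-6, were higher. All of these had a limma adjusted p above 0.05.

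Vcam1 was the gene of these lists with the smallest adjusted p in the comparison of all TCDCA libraries with FCA. It stood at 3.64, 2.55 and 3.07 FPKM in FCA and between 4.01 and 5.70 FPKM in the TCDCA libraries. All 9 lay above all 3 FCA libraries. The log2 fold change was 0.49 (95% interval 0.29 to 0.70), the limma adjusted p was 0.201, and the exact permutation p was 0.00455, the smallest this design allows. Vcam1 was chosen for these values, and 12% of all records had an unadjusted limma p under 0.05 in this comparison. How many of all records have all 9 TCDCA libraries on one side of the 3 FCA libraries was not counted.

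**Figure D5:**
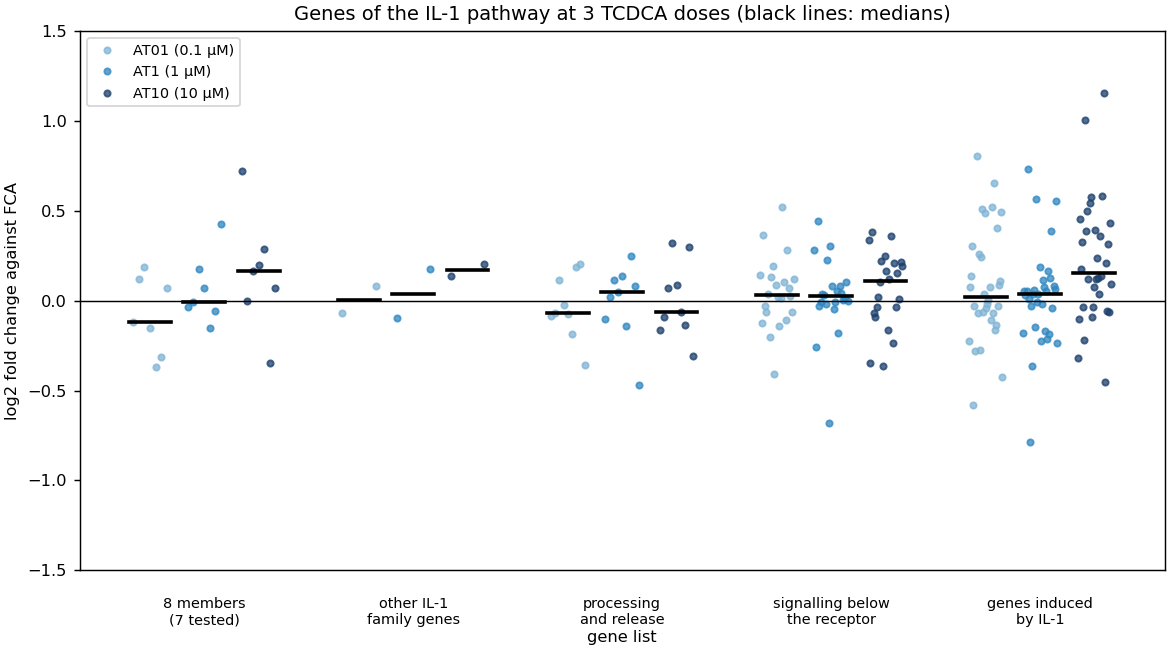
Log2 fold change against FCA at 0.1, 1 and 10 µM TCDCA for the tested members and for 4 lists of other genes of the pathway, with 1 point per gene and a black line at the median of each list and dose. In AT10 the median is 0.16 for the members and 0.16 for the genes induced by IL-1, and no gene of these lists had an adjusted p under 0.05.

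The records most like each member over the 12 libraries were taken by Pearson's r of log2(FPKM + 1) among about 11037 named records, as a description. The points share libraries, and the highest of so many values is high by selection. Il1a was closest to Gdf6 (r = 0.945), a growth factor of the BMP family, Ereg (0.901), the epidermal growth factor receptor ligand epiregulin, and Alg10 (0.876). Il1b was closest to Aagab (0.936), Dhrs11 (0.923) and RGD1311805 (0.867), and Il1rn to Gtf2i (0.892), Nav2 (0.874) and Dhx35 (0.832). Il1r1 was closest to Gpx3 (0.842), a secreted glutathione peroxidase, Pign (0.824) and Tmco1 (0.822). Il1rap was closest to C1galt1c1 (0.903), Rfwd2 (0.885) and Herpud2 (0.857), and Il33 to Slc35a4 (0.853), Nom1 (0.851) and Ston2 (0.849). Il1rl1 was closest to AABR07000159.4 (0.887), LOC103690149 (0.87) and Casp4 (0.863), an inflammatory caspase. No record was among the 3 closest to more than 1 member.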

How the data were processed

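Poly(A) RNA of cultured FLS from AA rats was sequenced in 12 libraries. The authors aligned reads with HISAT2 2.0.4, assembled transcripts with StringTie 1.2.4 and estimated levels with StringTie and Ballgown 2.6.0. They deposited FPKM to 2 decimals for 22442 gene records. The genome build is not given in the sources used here. The submitters' processing notes also name cutadapt and edgeR. FPKM are relative within a library, summed to between 284210 and 309696, and hold no read counts, so the depth and the precision of a single value are unknown.

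The 12 columns were assigned to samples by their names. Values were transformed as log2(FPKM + 1), and the 11611 records whose mean reached 1 FPKM were fitted by limma (version 3.58.1, R 4.3.3, lmFit and eBayes with trend), 2 groups at a time. Permutation tests ran in Python 3.11.15 (pandas 2.3.3, NumPy 2.4.6 and SciPy 1.17.1). Figures were drawn with Matplotlib 3.10.9. The fits were tested on simulated data. Named were the 8 members, from each list any gene with an adjusted p under 0.05 and the 3 records of highest mean, and the 3 records most correlated with each member. Other genes named for an unadjusted limma p under 0.05 are marked as chosen after their values were seen. The genes named by their highest library were chosen so too. Casp1, Il18r1, Sigirr, Cd14 and Cd68 were also named outside these rules. The members and lists were chosen with earlier results of these data known. Symbols matched RefSeq promoter windows for 8 of 8 members. Alternatives were no filter, a minimum mean of 10 FPKM, a pseudocount of 0.1, a joint fit over the 12 libraries, a Ballgown-style F test, scaling by medians of ratios, the sum over records of 1 name, a block for the replicate number, leaving out single libraries, and, chosen after seeing the data, the annotated record of Il1rap.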

Additional observations from a re-analysis of the deposited data

Results flagged for a closer look

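Il18 was listed at 0.16 FPKM in AT10 replicate 1, while the other 8 TCDCA libraries lay between 0 and 0.04 FPKM. The gap to the next library passed Dixon's 95% critical value for 9 samples. Chance flags about 1 in 20 groups of normally distributed values, and 16 such checks were made over the 8 members. Il18 was listed at 0 in 8 of the 12 libraries, so that rate may not hold for it. The value is far below the filter of 1 FPKM.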

How the results depend on the processing

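The count of members with an adjusted p under 0.05 was 0 in all 8 comparisons under every alternative. There were 592 alternative values for 38 member results. These include the adjusted p over the 4 groups of the 7 tested members, which has no direction and could only keep its side of the threshold. Counted so, 558 values kept their direction or side, 34 had the opposite sign, and 0 came under the threshold. The smallest adjusted p was 0.311. With all libraries kept, 5 values turned. The annotated Il1rap record gave -0.0681 in AT10 and -0.0301 for the TCDCA libraries together, against FCA. A pseudocount of 0.1 gave 0.00054 for Il1b in AT1. The Ballgown-style F test gave -0.0438 for Il1b in AT01 and -0.15 for the TCDCA libraries together. The cause of the Ballgown values was not tested. Leaving out each library in turn, which leaves 2 libraries in a group, turned the sign of 15 results, with these ranges. Against FCA they were -0.20 to 0.27 for Il1b and -0.27 to 0.51 for Il33 in AT10. In AT1 they were -0.28 to 0.20 for Il1a, -0.12 to 0.16 for Il1b, -0.14 to 0.064 for Il1rn, -0.00091 to 0.15 for Il1rap and -0.41 to 0.21 for Il1rl1. In AT01 they were -0.36 to 0.12 for Il1a, -0.11 to 0.37 for Il1b and -0.18 to 0.38 for Il33. For the TCDCA libraries together they were -0.0542 to 0.42 for Il1a, -0.0747 to 0.21 for Il1b, -0.0303 to 0.12 for Il1rap, -0.31 to 0.29 for Il1rl1 and -0.0612 to 0.42 for Il33. FCA replicate 3 was the library that turned Il1rl1 in AT1 and for the TCDCA libraries together. With a minimum mean of 10 FPKM only 3 members, Il1r1, Il1rl1 and Il33, were left to test. The log2 fold change of Il1rn stayed between -0.43 and -0.24 in AT10 and between -0.38 and -0.24 in AT01 over every alternative. That of Il1a in AT10 stayed between 0.48 and 1.00. Its difference from AT1 and AT01 was 1.03 and 1.15 with a pseudocount of 0.1, at an unadjusted limma p of 0.0232 and 0.0132.

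Samples with the same replicate number did not deviate together: over 18 pairs the correlation of their deviations lay between -0.105 and 0.0942, and 0 were over 0.1. What the libraries of a number share is not stated in the sources used here, beyond their being sets of repeats, so the numbers were not taken as pairs. With the replicate number as a block, 0 members had an adjusted p under 0.05 in every comparison, and over all records the block gave 1 call in place of 20 in AT10 against FCA, 0 in place of 11 in AT1 and 2 in place of 11 in AT01. Over all records the count of calls ranged, under the settings that keep every library, from 1 to 22 for 10 µM (20 as reported), 0 to 11 for 1 µM (11) and 1 to 12 for 0.1 µM (11) against FCA. Between doses it ranged from 1 to 32 for 10 against 1 µM (30), 0 to 9 for 10 against 0.1 µM (8) and 2 to 15 for 1 against 0.1 µM (15). For the TCDCA libraries together it was 1 to 5 (3), and over the 4 groups 2 to 7 (5). Leaving out each library in turn gave 19 to 35 calls in AT10, 9 to 33 in AT1 and 13 to 30 in AT01 against FCA, 26 to 50 for 10 against 1 µM, 12 to 24 for 10 against 0.1 µM, 11 to 25 for 1 against 0.1 µM, 2 to 22 for the TCDCA libraries together and 8 to 21 over the 4 groups. The highest counts came without AT10 replicate 3, AT1 replicate 2, AT01 replicate 2, AT1 replicate 3, AT01 replicate 3, AT01 replicate 3, FCA replicate 1 and FCA replicate 1, in that order. The limits are that depth is unknown, that 3 libraries a group leave 95% intervals as wide as -1.05 to 1.19, for Il33 in AT10, and that Il18 could not be tested.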
